A study of Mus musculus with 3 samples.

Results

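The 9 genes described here encode the machinery of major histocompatibility complex (MHC) class II antigen presentation: Cd74, H2-Aa, H2-Ab1, H2-Eb1, H2-DMa, H2-DMb1, H2-DMb2, H2-Ob and Ciita. They were taken as a fixed list from the 27998 genes counted, and each of the 9 had at least 1 unique molecular identifier (UMI, a tag that marks 1 captured RNA molecule) in every library. The data were 3 droplet single-cell libraries of noncardiomyocytes (non-CMs) from ventricles of wild-type mice. By the study's methods the strain was C57BL/6J JCL, and the mice were males of 8 weeks at surgery. One library came from hearts labelled as healthy controls (0 weeks), one from the adaptive hypertrophy phase 2 weeks after transverse aortic constriction (TAC, a ligature that narrows the aortic arch and loads the left ventricle with pressure), and one from the heart failure phase 12 weeks after TAC. The atria were removed, the ventricles were digested with collagenase, and non-CMs were collected on a Percoll gradient. The number of mice behind a library is not given in the sources used here.

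Class II molecules carry peptides from engulfed proteins to the cell surface, where CD4+ T cells read them. An alpha and a beta chain assemble with the invariant chain, which blocks the peptide groove until it is cut down in endosomes. The H2-DM heterodimer then removes the last fragment of the invariant chain and helps peptides bind, and the H2-O heterodimer restrains H2-DM. Ciita, the class II transactivator, binds no DNA itself and acts through factors that sit on conserved X and Y boxes upstream of these genes. Dendritic cells, B cells and macrophages are the usual presenting cells, and endothelial cells (ECs) and fibroblasts (FBs) of mice are known to take up class II mainly under interferon gamma. Mice of the C57BL/6 strain make no I-E alpha chain, so H2-Eb1, the I-E beta chain, has no partner in these hearts.

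After cells with under 200 genes were removed, 3892, 2231 and 792 cells remained at 0, 2 and 12 weeks, with 12287823, 4465929 and 1712728 UMIs and medians of 2589, 1495 and 1434 UMIs per cell. Cells were classed by the sum of their marker genes, none of which was one of the 9. Of the 118 markers listed, 3 were not in the tables used here, among them the immunoglobulin heavy chain genes Ighm and Ighd. The gate gave 821, 97 and 53 macrophages, 49, 62 and 11 monocyte or dendritic cells, 1108, 1755 and 300 ECs, 1224, 97 and 195 FBs, and 272, 47 and 33 mural cells (pericytes and smooth muscle cells). B cells numbered 30 and 78 at 0 and 12 weeks. None was found among the 2231 cells of the 2 week library, a count of 0 whose limit, taken as 3 counts of the total, is a share of 0.134%. That limit covers cells the gate could class. In that library 92 cells, at a median of 802.5 UMIs, had too few markers for any class. Whether B cells were among them was not tested. With 1 library per phase there is no test between phases, and phase, animal, depth and library cannot be told apart. The libraries shared 9 cell barcodes, of which 3 had the same class in both libraries.

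Levels are the UMIs of a gene per 1000000 UMIs of all cells of a class (CPM), and since each UMI is 1 captured 3′ end they were not divided by gene length. Ranges in parentheses are exact 95% intervals. They cover counting error only, and single cells of a class differed far more than these ranges. The sum of Cd74, H2-Aa, H2-Ab1 and H2-Eb1 is called the core sum, and the sum of H2-DMa, H2-DMb1, H2-DMb2 and H2-Ob the loading sum.

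Most of the 9 genes lie within 1 stretch of mouse chromosome 17 on GRCm38, by GENCODE vM21. On the plus strand these were H2-DMa (34119541 to 34139101), H2-DMb2 (34143307 to 34151555), H2-DMb1 (34153072 to 34160230), H2-Ob (34238903 to 34254414), H2-Ab1 (34257689 to 34269419) and H2-Eb1 (34305867 to 34316674), and on the minus strand H2-Aa (34282744 to 34287823). Ciita lies on chromosome 16 (10480059 to 10528418, plus strand), and Cd74 on another chromosome. Start-site windows of RefSeq on GRCm38.p6 were found for 6 of the 9 genes and not for H2-Ab1, Cd74 or Ciita. Among 32851 such windows, 33.85% held the letters ATTGG of the Y box in the 250 bases before the start on either strand, 29.9% held GCAAC, letters at the X box, and 0.673% held GCAAC followed by ATTGG on 1 strand with 25 to 40 bases between their starts. H2-Ob, H2-Aa and H2-Eb1 held that pair, at 30, 33 and 32 bases. Their stretches are printed 5′ to 3′ with GCAAC and ATTGG in capitals, because the 3 genes carry the same pair of motifs while their levels were spread differently over the classes. H2-Ob stood at 630 CPM in healthy B cells and 6.91 CPM in healthy macrophages, and H2-Aa at 5220 and 5530 CPM. H2-DMa has 2 windows, of which 1 held GCAAC alone and the other ATTGG alone.
H2-Ob, chr17:34238808-34238862, plus strand: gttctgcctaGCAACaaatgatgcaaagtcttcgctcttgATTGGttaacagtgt
H2-Aa, chr17:34287857-34287914, minus strand: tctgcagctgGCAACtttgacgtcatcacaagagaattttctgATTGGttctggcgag
H2-Eb1, chr17:34305766-34305822, plus strand: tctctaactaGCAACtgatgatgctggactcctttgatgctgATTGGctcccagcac

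H2-DMb1 and H2-DMb2 are neighbouring, similar copies of the H2-DM beta chain gene. The 30 bases that end at their ATTGG are shown because the 2 copies took different shares of the UMIs in different classes. Lined up on ATTGG without gaps, 97 of 115 bases were the same in the copies, and the longest shared run was 23 bases. Neither window held GCAAC in the bases before the start.
H2-DMb2, chr17:34145134-34145163, plus strand: tgatgctaggctaagtcacttagtgATTGG
H2-DMb1, chr17:34153105-34153134, plus strand: tgatgctaggctgattcactcagtgATTGG
The H2-DMb1 stretch lies in an annotated exon, and the H2-DMb2 stretch lies within the gene span and in no exon. A match to these letters is a description of the window and shows no binding.

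The core sum set the immune presenting classes apart from all others. It was 78968, 71491 and 76950 CPM in dendritic-like cells at 0, 2 and 12 weeks, 35064, 49034 and 52300 CPM in macrophages, and 37038 and 46263 CPM in B cells at 0 and 12 weeks. Monocyte-like cells held 18133, 12096 and 8066 CPM. ECs, FBs, mural cells and T or NK cells held between 38.2 and 538 CPM wherever a UMI was counted. At every phase the order was dendritic-like cells first, and monocyte-like cells below macrophages and B cells. In summed levels macrophages and B cells changed places: B cells were at 1.06 times the macrophage level at 0 weeks (1.01 to 1.11) and at 0.885 times at 12 weeks (0.851 to 0.920). By the median cell they did not. The core genes took 3.55% of the UMIs of the median B cell and 2.22% of the median macrophage at 0 weeks. At 12 weeks these values were 4.07% and 4.01%.

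**Figure D1:**
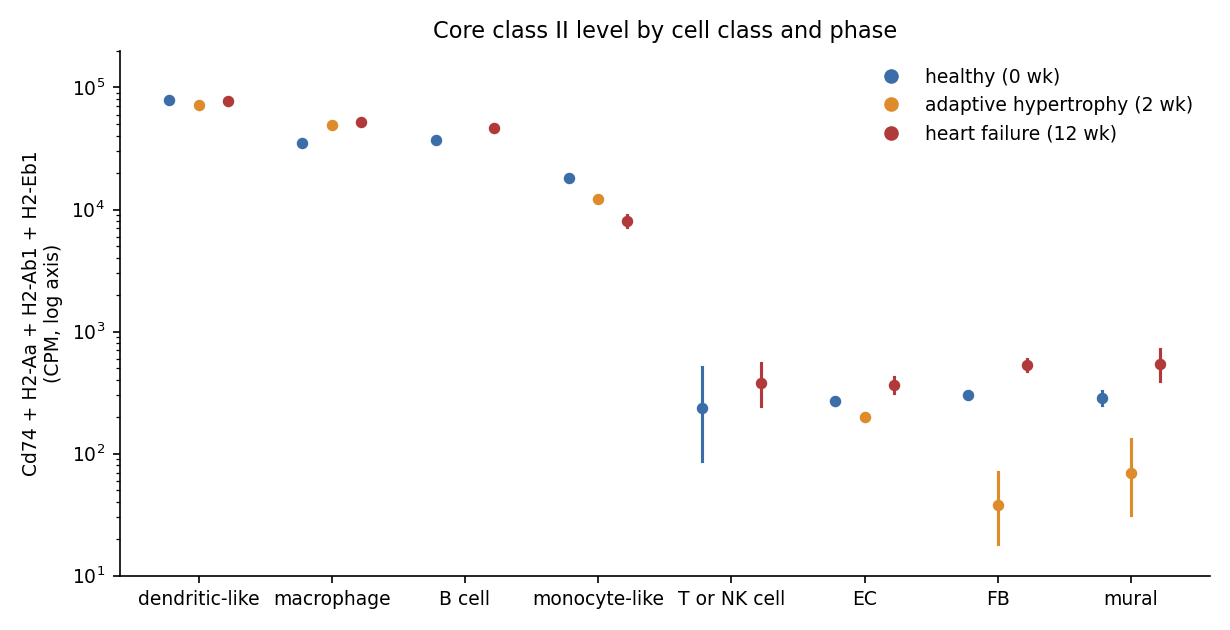
Core class II level (sum of Cd74, H2-Aa, H2-Ab1 and H2-Eb1, in CPM on a log axis) in each cell class and phase, with 1 library per phase. Points are summed levels and lines exact 95% counting intervals. Dendritic-like cells, macrophages, B cells and monocyte-like cells lie between 8066 and 78968 CPM, and the other classes at 538 CPM or lower. No B cells were found at 2 weeks, and the single T or NK cell of that phase held no core UMI.

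Which class supplied the class II RNA of the whole suspension shifted with the cells captured. Of all core UMIs, 106925, 17720 and 13629 in the 3 libraries, macrophages held 75.9% at 0 weeks, 55.7% at 2 weeks and 38.5% at 12 weeks. Monocyte or dendritic cells held 13.4%, 28.6% and 10.6%. B cells held 1.54% at 0 weeks and 35.9% at 12 weeks, close to the macrophage share of that library.

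In macrophages the question was whether class II genes differed between the phases of pressure overload. Over all macrophages the 4 core genes were higher at 2 and 12 weeks than at 0 weeks, and H2-Eb1 differed most. The direction at 2 weeks did not hold among macrophages without a UMI of a resident marker, where the core sum was 0.972 times the healthy level (0.950 to 0.995). These were 39.8% of macrophages at 0 weeks and 82.5% at 2 weeks, at medians of 2462 and 1481 UMIs per cell. A cell with fewer UMIs is more easily left without a marker UMI, and this ratio was not taken at equal depth. The direction at 12 weeks did not hold among macrophages with 2 or more resident markers (0.366 times, 0.312 to 0.427). Cd74, the invariant chain, stood at 19790, 24855 and 29154 CPM at 0, 2 and 12 weeks, which was 1.26 times the healthy level at 2 weeks (1.22 to 1.29) and 1.47 times at 12 weeks (1.42 to 1.53). H2-Aa, the I-A alpha chain, stood at 5530, 8671 and 7891 CPM (1.57 times, 1.49 to 1.65, and 1.43 times, 1.33 to 1.53). H2-Ab1, the I-A beta chain, stood at 5773, 7587 and 8270 CPM (1.31 times, 1.25 to 1.39, and 1.43 times, 1.33 to 1.54). Both I-A chains thus lay higher in each TAC library. H2-Eb1 stood at 3971, 7920 and 6985 CPM, which was 1.99 times the healthy level at 2 weeks (1.89 to 2.10) and 1.76 times at 12 weeks (1.63 to 1.90).

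Among the genes for peptide loading, the loading sum in macrophages was 1.27 times the healthy level at 2 weeks (1.10 to 1.45) and 1.10 times at 12 weeks (0.894 to 1.35). H2-DMa, the H2-DM alpha chain, stood at 513, 681 and 518 CPM, or 1.33 times at 2 weeks (1.11 to 1.59) and 1.01 times at 12 weeks (0.751 to 1.33). H2-DMb1 stood at 376, 447 and 468 CPM, or 1.19 times (0.947 to 1.48) and 1.25 times (0.908 to 1.67). Only the H2-DMa ratio at 2 weeks had an interval above 1 among these. H2-DMb2 gave 16, 2 and 0 UMIs, H2-Ob (the H2-O beta chain, which restrains H2-DM) 16, 1 and 1, and Ciita 32, 1 and 2, so that at this depth no difference between phases was detectable for these 3 genes.

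The macrophage ratios were also read against all genes, by fold alone and without regard to intervals. Genes of few UMIs pass a fold limit by counting error more easily than the core genes. These counts therefore do not grade the size of the core differences. Counting ratios of at least 1.5-fold among genes with at least 20 UMIs in both groups together, 2 of the 7 members that passed this filter were higher at 2 weeks (H2-Aa and H2-Eb1) beside 23.7% of 7208 genes, and 1 was lower beside 21.0%. The latter was Ciita, which passed the filter only through its 32 healthy UMIs and whose ratio had an interval that held 1 (0.360 times, 0.00884 to 2.15). At 12 weeks, 1 of 7 was higher (H2-Eb1) beside 24.8% of 7074 genes, and 0 were lower beside 16.3%. The median ratio of the 7 was 1.31 at 2 weeks and 1.43 at 12 weeks, against 1.02 and 0.991 over all genes compared. For class I, the route for peptides from within the cell, the sum of B2m, H2-K1 and H2-D1 was 1.16 and 1.03 times the healthy level, though H2-K1 alone was 2.12 times (1.88 to 2.39) and 1.53 times (1.26 to 1.85). The complement genes C1qa, C1qb and C1qc, which mark macrophages, summed to 0.862 and 0.887 times.

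**Figure D2:**
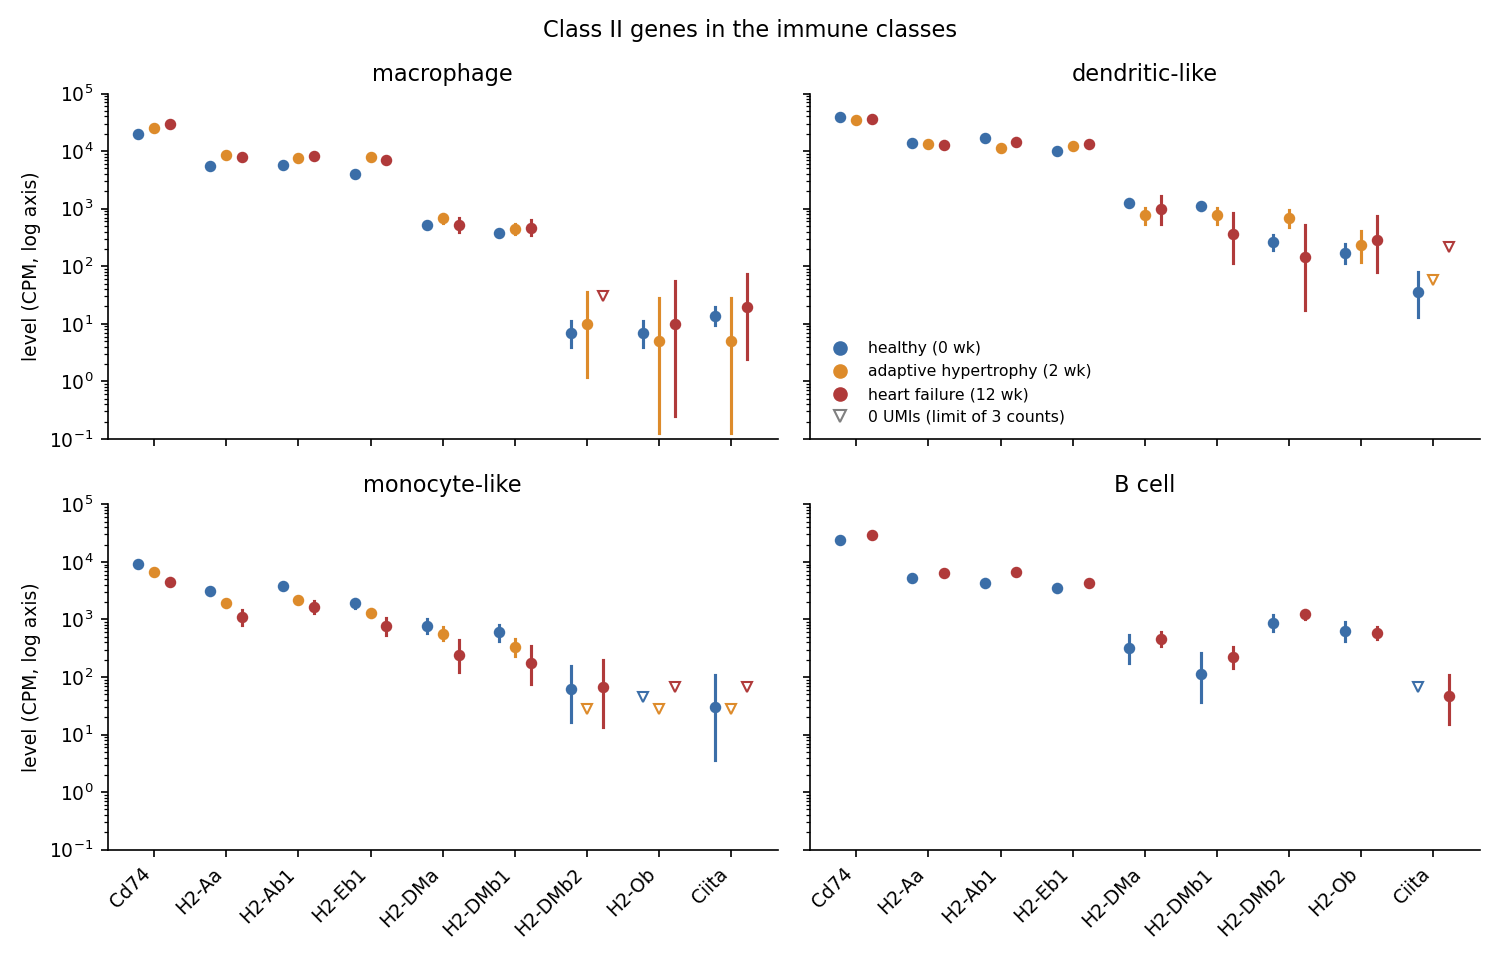
Level of each of the 9 class II genes (CPM, log axis) in macrophages, dendritic-like cells, monocyte-like cells and B cells at 0, 2 and 12 weeks. Points are summed levels, lines exact 95% counting intervals, and open triangles the limit of 3 counts where no UMI was found. H2-DMb2 and H2-Ob stand at 878 and 630 CPM in healthy B cells and at 6.91 CPM each in healthy macrophages.

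Median mitochondrial shares of macrophages were 2.76%, 4.59% and 8.73% at 0, 2 and 12 weeks, and moved with the phases as the core levels did. Without cells over 10% mitochondrial UMIs the core ratios were 1.44 and 1.67.

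Single macrophages differed from each other by far more than the phases did. The core genes took 0% of a cell's UMIs in 89, 7 and 9 macrophages and up to 14.1%, 14.0% and 15.2% in the highest cell of each library, with medians of 2.22%, 4.82% and 4.01%. The share of macrophages with over 1% of their UMIs from the core genes was 57.4% (53.9 to 60.8, 471 of 821), 74.2% (64.3 to 82.6, 72 of 97) and 64.2% (49.8 to 76.9, 34 of 53). At 12 weeks, 2 macrophages of 53 held 30.7% of the class's core UMIs.

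Shares of cells with a UMI move with depth, and median UMIs per macrophage were 2631, 1575 and 1253. With each cell thinned to 1000 UMIs, 80.5% (77.6 to 83.2) of 821, 89.3% (80.1 to 95.3) of 75 and 90.6% (75.0 to 98.0) of 32 macrophages had a core UMI, the shallower cells of the 97 and 53 being left out. Without thinning the shares were 89.2%, 92.8% and 83.0%. The same thinned share in FBs and mural cells together, at medians of 2794, 1694 and 2375 UMIs, was 18.9%, 3.77% and 25.7%. The macrophage shares overlapped in their intervals between neighbouring phases.

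Class II levels were lower in macrophages that had a UMI of a resident macrophage marker, Folr2, Lyve1, Timd4 or Cd163. In the healthy library the core sum was 58673 CPM in 327 macrophages without a UMI of these 4 genes, 33854 CPM in 203 with 1 of them and 14545 CPM in 291 with 2 or more. At 12 weeks the same groups held 78495, 53324 and 5327 CPM in 28, 12 and 13 cells. At 2 weeks they held 57047, 21447 and 29334 CPM in 80, 13 and 4 cells. Macrophages without a resident marker thus had the highest level in each library.

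Cells with a UMI of Ccr2, a chemokine receptor of recruited macrophages, lay higher still, at 67564, 64430 and 94340 CPM in 57, 29 and 8 cells. Ccr2 was also a monocyte marker of the gate, which left out no cell as mixed between macrophages and monocyte or dendritic cells. Cells near that border can thus be among those with Ccr2. The 24 healthy macrophages with 2 or more cell cycle markers lay far lower, at 5317 CPM.

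The share of macrophages without a resident marker also differed between libraries. It was 39.8% (36.5 to 43.3), 82.5% (73.4 to 89.4) and 52.8% (38.6 to 66.7), and after thinning to 1000 UMIs 52.1% (428 of 821), 89.3% (67 of 75) and 59.4% (19 of 32). At 2 weeks the core sum of all macrophages was 1.40 times the healthy level (1.37 to 1.43), against the 0.972 times of those without a resident marker. At 12 weeks the values were 1.49 times (1.45 to 1.53) and 1.34 times (1.30 to 1.38). Macrophages with 1 resident marker were at 0.634 times the healthy level at 2 weeks (0.590 to 0.679) and 1.58 times at 12 weeks (1.47 to 1.69). Those with 2 or more were at 2.02 times at 2 weeks (1.77 to 2.29), on 4 cells. At 12 weeks they were at 0.366 times (0.312 to 0.427), on 13 cells. Comparing phases within these groups was a choice made after seeing the data.

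**Figure D3:**
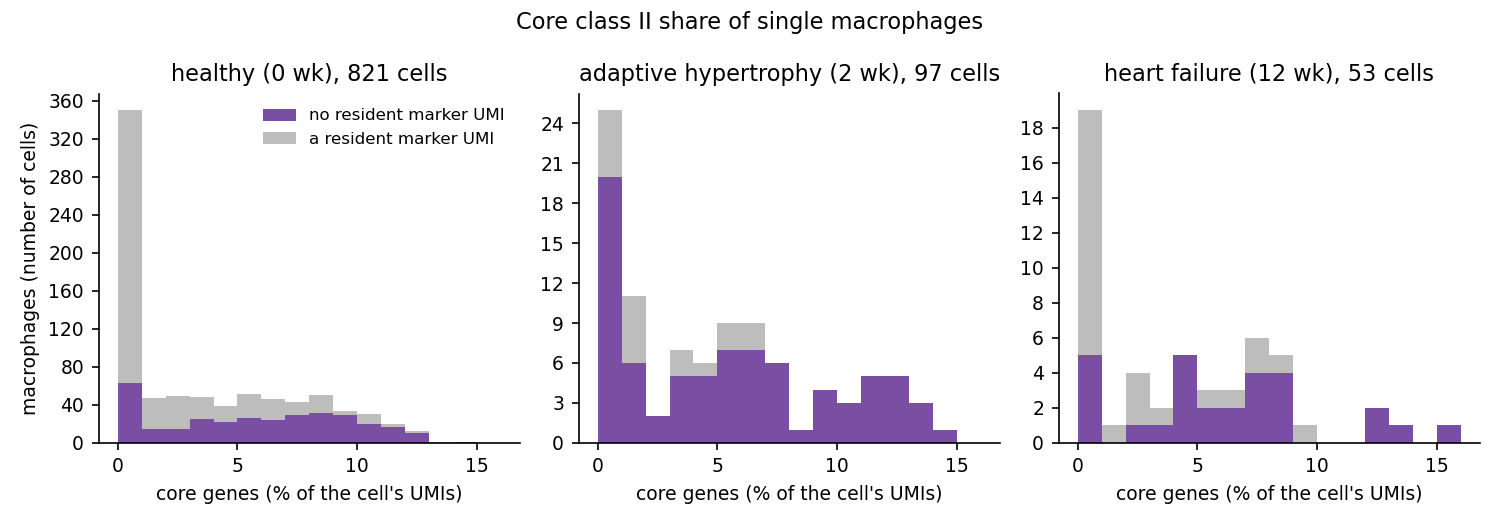
Number of macrophages by the share of their UMIs that came from the 4 core genes (in steps of 1%), for each phase. Purple bars are cells without a UMI of Folr2, Lyve1, Timd4 or Cd163, and grey bars cells with at least 1. Each library has a group of cells under 1%, which in the healthy library is mostly grey, and cells that reach 14% or more.

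Among the immune classes compared, H2-Eb1 stood higher relative to H2-Ab1 at 2 weeks than at 0 weeks in 2 classes. In macrophages H2-Eb1 gave 0.688 UMIs per H2-Ab1 UMI at 0 weeks (0.670 to 0.706), 1.04 at 2 weeks (0.973 to 1.12) and 0.845 at 12 weeks (0.763 to 0.935). In dendritic-like cells the values were 0.589 (0.554 to 0.626), 1.11 (0.990 to 1.24) and 0.898 (0.732 to 1.10). Both classes were lowest in the healthy library and highest at 2 weeks, with intervals that did not overlap between these. Monocyte-like cells gave 0.502, 0.598 and 0.467, with intervals that overlapped, and B cells 0.812 and 0.650 at 0 and 12 weeks, also overlapping. The shift was not confined to these classes. ECs held 116 H2-Eb1 and 200 H2-Ab1 UMIs at 0 weeks, and 101 and 104 at 2 weeks. Cells with too few markers for any class held 415 and 564 at 0 weeks, and 277 and 306 at 2 weeks.

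Dendritic-like cells, named from Cd209a, Flt3 and other dendritic markers, numbered 25, 15 and 2, so that the 12 week values rest on 2 cells, 1 of which held 81.5% of the core UMIs. Their core sum lay near the healthy level in both TAC libraries, while single genes differed. Cd74 stood at 38456, 34435 and 36262 CPM and H2-Aa at 13749, 13334 and 12920 CPM. H2-Ab1 stood at 16843, 11249 and 14633 CPM, or 0.668 times at 2 weeks (0.610 to 0.730), while H2-Eb1 stood at 9920, 12473 and 13134 CPM, or 1.26 times (1.15 to 1.38). The core sum was 0.905 times the healthy level at 2 weeks (0.873 to 0.939) and 0.974 times at 12 weeks (0.915 to 1.04).

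The loading genes of dendritic-like cells differed between the copies of the H2-DM beta chain. H2-DMa stood at 1266, 765 and 999 CPM (0.604 times at 2 weeks, 0.420 to 0.851) and H2-DMb1 at 1098, 765 and 357 CPM (0.697 times, 0.482 to 0.986). H2-DMb2 gave 43, 36 and 2 UMIs (259, 689 and 143 CPM), or 2.66 times at 2 weeks (1.66 to 4.23). H2-DMb1 was thus lower and H2-DMb2 higher at 2 weeks, and their sum was 1.07 times the healthy level (0.815 to 1.40). H2-Ob gave 28, 12 and 4 UMIs (169, 230 and 286 CPM), and Ciita 6, 0 and 0.

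Set against macrophages of the same healthy library, dendritic-like cells were higher for every one of the 9 genes. The ratios ran from 1.94 for Cd74 (1.89 to 1.99) to 2.92 for H2-Ab1 (2.80 to 3.04) among the core genes, and were 2.47 for H2-DMa (2.12 to 2.86) and 2.92 for H2-DMb1 (2.47 to 3.43). H2-DMb2 was 37.5 times higher (20.7 to 71.4) and H2-Ob 24.4 times (12.8 to 48.4). Ciita was 2.62 times higher on 6 UMIs, with an interval that reached below 1 (0.895 to 6.35). All 9 passed 1.5-fold, beside 15.5% of 7115 genes that were higher and 36.6% that were lower, and the median ratio was 2.62 for the 9 and 0.698 for all genes. At 2 and 12 weeks the core sum of dendritic-like cells was 1.46 times (1.40 to 1.51) and 1.47 times (1.38 to 1.57) that of macrophages.

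In summed levels monocyte-like cells (24, 47 and 9) went the other way from macrophages. Cd74 stood at 9219, 6702 and 4543 CPM, H2-Aa at 3124, 1902 and 1086 CPM, H2-Ab1 at 3855, 2185 and 1662 CPM, and H2-Eb1 at 1935, 1307 and 776 CPM. Each of the 4 was lower in both TAC libraries, and the core sum was 0.667 times (0.616 to 0.722) and 0.445 times (0.394 to 0.501) the healthy level. Few cells held much of these sums. Of the core UMIs, 1 cell of 24 held 32.5% at 0 weeks, 2 of 47 held 44.1% at 2 weeks and 1 of 9 held 93.4% at 12 weeks. The median cell had 0.130%, 0.254% and 0.0622% of its UMIs from core genes. By the median cell, monocyte-like cells thus lay higher at 2 weeks than at 0 weeks, unlike the summed ratio. H2-DMa stood at 777, 567 and 244 CPM, with a ratio at 2 weeks whose interval held 1 (0.729 times, 0.495 to 1.08) and one below 1 at 12 weeks (0.314 times, 0.147 to 0.609). H2-DMb1 stood at 594, 329 and 177 CPM, below the healthy level in both (0.554 times, 0.342 to 0.894, and 0.298 times, 0.120 to 0.648). H2-DMb2 gave 4, 0 and 3 UMIs, and H2-Ob had no UMI in any phase.

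The pooled monocyte or dendritic class mixed both kinds. Its core sum was 61719, 31302 and 24384 CPM, or 0.507 times at 2 weeks (0.491 to 0.524) and 0.395 times at 12 weeks (0.374 to 0.417). Dendritic-like cells were 25 of its 49 cells at 0 weeks, 15 of 62 at 2 weeks and 2 of 11 at 12 weeks, a share that moved with these ratios.

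B cells, which present antigen taken up through their receptor, were read at 0 and 12 weeks, from 30 and 78 cells. Cd74 stood at 24032 and 28957 CPM (1.20 times, 1.12 to 1.29), H2-Aa at 5220 and 6364 CPM (1.22 times, 1.05 to 1.42), H2-Ab1 at 4298 and 6629 CPM (1.54 times, 1.31 to 1.82) and H2-Eb1 at 3488 and 4312 CPM (1.24 times, 1.03 to 1.49). The 4 core genes were thus all higher at 12 weeks, H2-Ab1 by the most. Median UMIs per B cell were 1405 and 959, and median mitochondrial shares 3.05% and 5.78%, and without cells over 10% mitochondrial UMIs the core ratio was 1.34. The core sum was 1.25 times (1.18 to 1.32), and the class I sum was 1.46 times. H2-DMa gave 14 and 49 UMIs (315 and 463 CPM), H2-DMb2 39 and 130 (878 and 1229 CPM) and H2-Ob 28 and 62 (630 and 586 CPM), each with a ratio whose interval held 1, while the sum of H2-DMb1 and H2-DMb2 was 1.47 times (1.05 to 2.11). Ciita gave 0 UMIs at 0 weeks and 5 at 12 weeks.

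Of 8 members with enough UMIs in B cells, 2 were at least 1.5-fold higher at 12 weeks (H2-Ab1 and, on 5 and 24 UMIs, H2-DMb1) beside 22.0% of 945 genes, and 0 were lower beside 16.4%. Their median ratio was 1.32, against 0.993 over all genes.

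B cells differed from macrophages more in the genes around peptide loading than in the core sum. At 0 weeks H2-DMb2 was 127 times higher in B cells (69.4 to 243) and H2-Ob 91.2 times (47.7 to 180). At 12 weeks H2-Ob was 58.8 times higher (10.2 to 2360), against 1 macrophage UMI, and H2-DMb2 at least 41.1-fold higher, taking 3 counts for the 0 UMIs over all macrophages. H2-DMb1 went in the opposite direction, at 0.299 times (0.0969 to 0.701) and 0.485 times (0.283 to 0.809) the macrophage level. At 12 weeks 2 of 8 members were at least 1.5-fold higher in B cells (H2-DMb2 and H2-Ob) beside 32.8% of 1405 genes. Another 2 were lower (H2-Eb1, at 0.617 times, and H2-DMb1) beside 34.0%. H2-DMb2 (130 UMIs in B cells and 0 in macrophages) and H2-Ob (62 and 1) passed the filter only through B cells. Their calls are therefore not a separate result. The median ratio of the 8 was 0.850, against 1.03 over all genes.

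The copy of the H2-DM beta chain that was counted thus set the classes apart. H2-DMb2 made up 1.80% of H2-DMb1 and H2-DMb2 UMIs in healthy macrophages (16 of 887), 2.17% at 2 weeks (2 of 92) and 0% at 12 weeks (0 of 47, with an exact interval up to 7.55%). In dendritic-like cells it made up 19.1% (14.2 to 24.9), 47.4% (35.8 to 59.2) and 28.6% (3.67 to 71.0, on 7 UMIs), and in B cells 88.6% (75.4 to 96.2) and 84.4% (77.7 to 89.8) at 0 and 12 weeks. B cells were counted mostly for H2-DMb2 and macrophages mostly for H2-DMb1, with dendritic-like cells between. The copies are similar enough that reads matching both can be dropped or misplaced, so the split is uncertain, while their sum depends less on it. That sum was 383, 457 and 468 CPM in macrophages, 1357, 1454 and 500 CPM in dendritic-like cells and 990 and 1456 CPM in B cells.

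**Figure D4:**
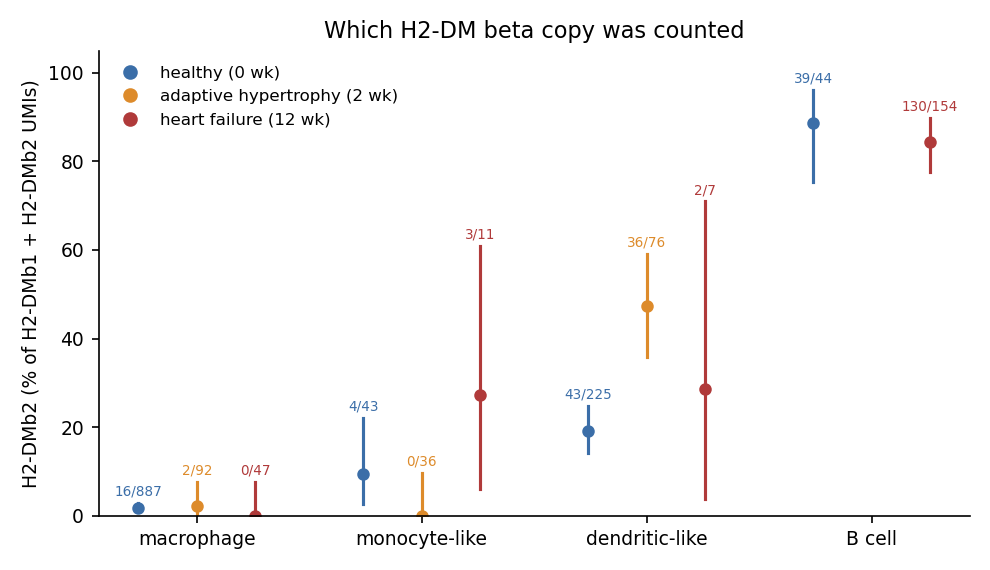
Share of H2-DMb2 among UMIs assigned to H2-DMb1 or H2-DMb2 in 4 immune classes at 0, 2 and 12 weeks. Points are shares, lines exact 95% binomial intervals and labels the UMI counts. B cells lie at 84.4% or higher, macrophages at 2.17% or lower and dendritic-like cells between 19.1% and 47.4%. No B cells were found at 2 weeks.

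In ECs the question was whether class II RNA stood above what free RNA in the droplets gives, for which FBs and mural cells of the same library were the measure. The core sum in ECs was 270 (252 to 288), 200 (185 to 215) and 368 (315 to 427) CPM. In FBs it was 304, 38.2 and 533 CPM, and in mural cells 287, 69.2 and 538 CPM. ECs were below FBs and mural cells together at 0 weeks (0.897 times, 0.824 to 0.976) and at 12 weeks (0.689 times, 0.573 to 0.827), and above them at 2 weeks (4.12 times, 2.62 to 6.89). The direction at 0 weeks depended on the gate: the ratio was 1.43 with at least 4 markers, 1.03 as a mean over cells and 1.00 with mixed cells kept. Without cells that had a UMI of a macrophage, monocyte, dendritic or B cell marker in either class (Ebf1, Fn1, Ace and Vcan not counted, since ECs, FBs or mural cells express them), a choice made after seeing the data, the ratio was 1.27 at 0 weeks with an interval above 1, 1.96 at 2 weeks (1.20 to 3.42) and 0.802 at 12 weeks (0.589 to 1.09). The level in FBs and mural cells at 2 weeks rests on 19 UMIs in 144 cells. Free RNA of a droplet weighs more in CPM where a cell has fewer UMIs. Median UMIs were 2225.5, 1508 and 1318.5 in ECs and 2793.5, 1694 and 2375 in FBs and mural cells by phase. Without immune marker cells, 461 ECs held 237 core UMIs and 764 FBs and mural cells 385 at 0 weeks. At 2 weeks 1038 ECs held 220 and 106 FBs and mural cells 17. The ratios were not taken at equal depth, so one above 1 does not place ECs above free RNA.

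Few cells carried much of this signal. At 2 weeks 28 of 1755 ECs had 3 or more core UMIs and held 74.5% of the EC core UMIs, and 15 of the 28 also had a UMI of one of these markers, as 717 of all 1755 ECs did. At 0 weeks 44 of 1108 ECs held 39.9%, and 27 of 1224 FBs held 53.6% of the FB core UMIs. Without cells of 3 or more core UMIs in any of these classes, the ratio of ECs to FBs and mural cells was 1.17 (1.04 to 1.31), 2.00 (1.06 to 4.24) and 1.16 (0.897 to 1.49). This removes cells by the measure itself, and deeper cells reach 3 UMIs more easily: at 12 weeks it took out 35 of 228 FBs and mural cells, of 6672 UMIs at the median, and 11 of 300 ECs, so these ratios are given as values only.

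By member, the 2 week ratios of ECs to FBs and mural cells were 5.74 for Cd74 (2.76 to 14.4), 2.38 for H2-Aa (1.06 to 6.61), 6.04 for H2-Ab1 (1.63 to 50.5) and 2.93 for H2-Eb1 (1.11 to 11.0). H2-DMa was at 1.05 times (0.250 to 9.29), on 18 and 2 UMIs, and H2-DMb1 had 20 UMIs in ECs and 0 in the others. Of 6 members with at least 20 UMIs, 4 were at least 1.5-fold higher in ECs beside 29.9% of 9530 genes, and 0 were lower beside 23.7%. Each of the 6 had 7 or fewer UMIs in FBs and mural cells. The filter was thus met mostly through ECs, and by H2-DMb1 through its EC UMIs alone. H2-Ob gave 9, 10 and 0 UMIs in ECs, against 1, 0 and 0 in FBs and 0 in mural cells. Ciita gave 2, 3 and 1 UMIs in ECs.

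The C1q genes, which ECs should lack, give a measure of free macrophage RNA. Relative to macrophages of the same library, the core sum in ECs stood at 0.770%, 0.407% and 0.703%, and the C1q sum at 0.481%, 0.0993% and 0.351%. In FBs and mural cells the core sum stood at 0.858%, 0.0989% and 1.02% and the C1q sum at 0.514%, 0.0760% and 0.333%. C1q marks macrophages, while macrophages held only 75.9%, 55.7% and 38.5% of the core UMIs. The core and C1q percentages are therefore not on a like basis, and the gap between them was not tested. Between phases, the core sum in ECs was 0.740 times the healthy level at 2 weeks (0.669 to 0.819) and 1.36 times at 12 weeks (1.15 to 1.60), while that in FBs and mural cells was 0.161 and 1.77 times. With mixed cells kept the EC values were 0.462 and 0.940, the latter with an interval that held 1 (0.810 to 1.09). Without ECs of 3 or more core UMIs they were 0.299 and 1.67. Whether ECs made the RNA was not tested. Class I, by contrast, was higher in ECs than in FBs and mural cells in each library, with sums at 2.62, 3.37 and 2.27 times.

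**Figure D5:**
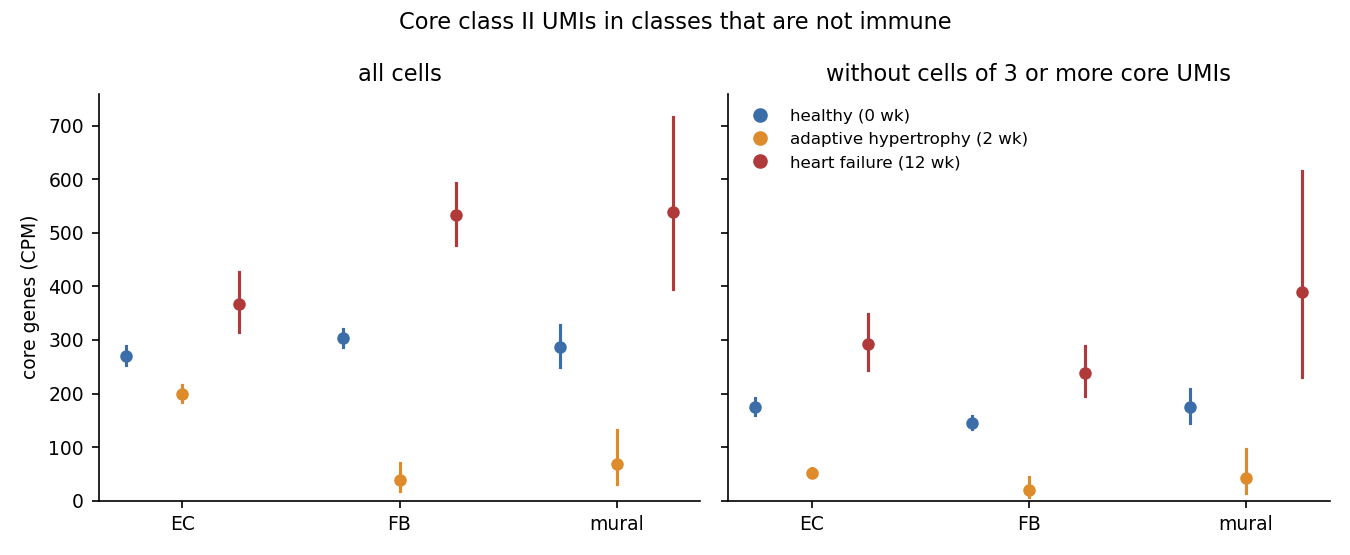
Core class II level (CPM) in ECs, FBs and mural cells at 0, 2 and 12 weeks, for all cells (left) and without cells of 3 or more core UMIs (right). Points are summed levels and lines exact 95% counting intervals. At 2 weeks ECs stand at 200 CPM on the left and 52.5 CPM on the right, and FBs at 38.2 and 19.2 CPM.

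A list of 28 further genes of the pathway was read in the same way: partners, proteases that cut the invariant chain, costimulatory ligands, ubiquitin ligases and the factors that act with Ciita. In macrophages 7 of the 24 compared were at least 1.5-fold higher and 4 lower at 2 weeks, beside 23.7% and 21.0% of all genes, with a median ratio of 0.993. Those whose intervals left out 1 were Cd40 (28.1 CPM at 0 weeks and 79.6 at 2 weeks, 2.83 times), a costimulatory receptor, and Creb1 (1.94 times), and below it the cathepsin Ctsb (0.554 times), the ligand Cd86 (0.493 times) and Cd83 (0.612 times). At 12 weeks 7 of 24 were higher and 2 lower, beside 24.8% and 16.3% of all genes, with a median of 1.18, and intervals left out 1 for Ifngr1, a chain of the interferon gamma receptor (1.94 times), and Cd83 (0.643 times). In B cells 0 of 6 were higher and 2 lower at 12 weeks, beside 22.0% and 16.4%. The counts in macrophages lay near those shares.

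Between classes the largest difference in the list was that of H2-Oa. H2-Oa, the alpha partner of H2-Ob, gave 187 CPM in healthy dendritic-like cells and 1.73 CPM in macrophages (108 times, 38.3 to 422), and at 12 weeks 32 UMIs in B cells against 0 in macrophages (at least 10.1-fold higher). Ifi30, a thiol reductase of antigen processing, was 2.67 times higher in dendritic-like cells than in macrophages, Irf8, a factor of dendritic cell development, 2.64 times, the costimulatory ligand Cd80 4.89 times (on 7 UMIs) and Ifngr1 1.89 times. The lysosomal proteases ran the other way, with Ctss at 0.432 times the macrophage level in dendritic-like cells, Ctsl at 0.147, Ctsb at 0.0825 and Lgmn at 0.0825. Cd86 (0.529 times), Cd83 (0.455 times) and Irf1 (0.302 times) were also lower there. In B cells at 12 weeks Ctss (0.300 times), Ctsb (0.0556), Lgmn (0.158), Cd86 (0.298), Cd83 (0.249), Ifngr1 (0.429) and the myeloid factor Spi1 (0.283) were below macrophages. In all, 6 of 25 were at least 1.5-fold higher in dendritic-like cells and 12 lower, beside 15.5% and 36.6% of all genes. In B cells at 12 weeks 1 of 12 was higher and 10 lower than in macrophages, beside 32.8% and 34.0%. In both comparisons H2-Oa passed the filter only through the class where it was higher. Cd40 in ECs, given next, passed it through its EC UMIs alone. In ECs at 2 weeks 6 of 18 were higher than in FBs and mural cells, near the 29.9% of all genes and beside 23.7% lower, among them Irf1 (2.49 times), Creb1 (2.16 times), Ifngr1 (2.03 times) and Cd40 (78 UMIs against 0, at least 3.02-fold higher), and 2 were lower (Lgmn at 0.536 times and Ifi30 at 0.145 times).

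Outside these lists and the markers, the gene whose level over 23 points of class and phase was most like the core sum was Ly86 (Pearson r = 0.973 on log2(CPM + 1), of 11356 genes ranked), which encodes a partner of the receptor Cd180. Cd180 itself came next (0.962), followed by Fgd2 (0.956), Gm6377 (0.950), Pkib (0.941), Rnase6 (0.926), Blnk (0.921), Cybb (0.911), Pld4 (0.900) and Lat2 (0.887). The points share 3 libraries and their depths, so r is a description. The 4 core genes are parts of that sum, so their r is not informative. Among the other members r was 0.906 for H2-DMa, 0.893 for H2-DMb1, 0.811 for H2-Ob, 0.737 for H2-DMb2 and 0.672 for Ciita, which had 62 UMIs in all.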

How the data were processed

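The authors deposited 1 matrix of raw UMI counts per phase (Chromium, Cell Ranger 2.0.0 and mm10 per the submitters' processing notes). With Python 3.11.15, numpy 2.4.6, scipy 1.17.1 and pandas 2.3.3, cells with under 200 genes were removed, and each cell took the class with the highest sum of ln(1 + UMIs per 10000) over its markers, with at least 3 different markers. Cells whose second sum was over 50% of the first were left out as mixed (297, 61 and 24), except between macrophages and monocyte or dendritic cells, and no doublet caller was run. Monocyte or dendritic cells were split by the higher of their 2 sums. Levels carry exact Poisson intervals, ratios conditional binomial intervals and shares Clopper-Pearson intervals at 95%. The ratio step was tested on simulated Poisson counts, the model its intervals assume, so that test does not cover differences between cells. Genes needed 20 UMIs over both groups for 1.5-fold counts, with 3 counts in place of a group at 0. FBs and mural cells stood for free RNA. Weeks after TAC follow the study's methods. The text names the 9 members, pathway genes past 1.5-fold whose interval left out 1, and the 10 genes most like the core sum with at least 50 UMIs. Members and lists were chosen with earlier results of these data known. Alternatives were other gene, marker, mitochondrial and mixture limits, means over cells, division by the median ratio, thinning and low-count filters, and subsets added after the data were seen.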

Additional observations from a re-analysis of the deposited data

Results flagged for a closer look

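As whole classes, macrophages and monocyte or dendritic cells had core ratios on opposite sides of 1. The core sum of macrophages was 1.40 times the healthy level at 2 weeks and 1.49 times at 12 weeks, and that of monocyte or dendritic cells 0.507 and 0.395 times. Within narrower groups this was not always so. Macrophages without a resident marker were at 0.972 times at 2 weeks. At 12 weeks macrophages with 0, 1 and 2 or more resident markers were at 1.34, 1.58 and 0.366 times. Dendritic-like cells were at 0.905 times at 2 weeks and 0.974 times at 12 weeks. The difference between the classes was not tested, since each phase is 1 library.

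Cells outside the compared classes also held class II RNA, above the 301, 48.5 and 533 CPM of FBs and mural cells. Cells with too few markers for any class (47, 92 and 51 cells) had a core sum of 33433, 19188 and 18296 CPM at 0, 2 and 12 weeks, and cells left out as mixed (297, 61 and 24) had 2937, 1423 and 6645 CPM.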

How the results depend on the processing

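Of the alternative values for 16 results, 61 kept their direction and stayed close to the value given, 36 moved and 8 turned direction. A turn was read from the value alone, and the intervals of some held 1. No paired analysis was possible because each phase has 1 library, and for the same reason no replicate could be left out. For macrophages at 2 weeks the core ratio was 1.44 without cells over 10% mitochondrial UMIs, 1.47 without the 5% of macrophages richest in core UMIs and 0.972 without those with a resident marker. At 12 weeks it was 1.58 with at least 500 genes, 1.67 with the mitochondrial limit, 1.44 with mixed cells kept, 1.19 as a mean over cells, 1.37 without the richest 5% and 1.34 without resident markers. Monocyte or dendritic cells gave 0.488 at 2 weeks with at least 4 markers, 0.524 with 500 genes, 0.472 after division by the median ratio of all genes, 0.905 for dendritic-like cells alone and 0.667 for monocyte-like cells alone, and at 12 weeks 0.479 with 4 markers, 0.359 as a mean over cells, 0.974 for dendritic-like and 0.445 for monocyte-like cells. B cells gave 1.34 with 4 markers, 1.34 with the mitochondrial limit and 1.42 with mixed cells kept. ECs at 2 weeks gave 0.513 with 4 markers, 0.462 with mixed cells kept, 0.570 without ECs with an immune marker UMI and 0.299 without ECs of 3 or more core UMIs, and at 12 weeks 0.940 with mixed cells kept and 1.67 without ECs of 3 or more core UMIs. ECs over FBs and mural cells turned at 0 weeks to 1.43 with 4 markers and 1.03 as a mean over cells. With mixed cells kept that ratio was 1.00, with an interval that held 1 (0.941 to 1.07), and without cells of 3 or more core UMIs it was 1.17. It stood at 0.722 without ECs with an immune marker UMI, and turned to 1.27 with such cells, Ebf1, Fn1, Ace and Vcan not counted, left out of both sides. That ratio at 2 weeks was 1.92 with mixed cells kept, 2.56 without immune marker ECs, 1.96 with such cells left out of both sides and 2.00 without cells of 3 or more core UMIs. At 12 weeks it was 1.16 under the last, with an interval that held 1 (0.897 to 1.49). Without a low-count filter, genes past 1.5-fold numbered 4929 against 3221 at 2 weeks and 4643 against 2907 at 12 weeks in macrophages, and 2939 against 363 in B cells. The thinned share of macrophages was 68.1% at 0 weeks and 71.9% at 12 weeks for 3 or more core UMIs, and 89.2% at 0 weeks unthinned. Alternatives on resident markers, the richest 5%, the dendritic-like and monocyte-like split, immune marker cells left out of both sides and cells of 3 or more core UMIs were chosen after seeing the data. The cause of these shifts was not tested. Depth limited H2-DMb2, H2-Ob and Ciita in macrophages, and ECs against FBs and mural cells at 2 weeks.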
